A study of Mus musculus with 9 samples.

Results

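The 10 tubulin genes described here are Tuba1a, Tuba1b, Tuba1c, Tuba4a and Tuba8, which encode α-tubulins, and Tubb1, Tubb2a, Tubb4b, Tubb5 and Tubb6, which encode β-tubulins. They were chosen by symbol from the 17769 genes of a count table of mouse bone marrow cells, and each symbol matched 1 gene. All 10 passed the filter on low counts that left 13608 genes to test. The cells were sorted by flow cytometry as MEP, the megakaryocyte-erythroid progenitors from which both platelet-forming megakaryocytes and red cells descend, and the study compared cells with 2 kinds of Jak2 mutation with cells of WT mice. The kinase Jak2 relays erythropoietin and thrombopoietin signals inside these cells.

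The VF group carried SclCre and the V617F allele and was sampled 12 weeks after tamoxifen. The E12 group carried SclCre and the Exon12 allele and was sampled 6 weeks after tamoxifen. The WT group was sampled at 12 weeks, and its label names no SclCre. All mice are labelled C57BL/6N, and the mutations were switched on with 5 daily tamoxifen injections through SclCre, a recombinase driven from the Scl (Tal1) locus of blood stem and progenitor cells. No source used here gives the age of the mice or how many stand behind a library. Each group has 3 libraries, named VF 1, 2 and 3, E12 1, 2 and 5, and WT 50, 51 and 52. The labels do not say that replicates are separate mice, so p-values measure the spread between these libraries, which may be technical.

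Microtubules are hollow polymers of α- and β-tubulin pairs, and mammals carry several genes for each partner, called isotypes. Dividing progenitors need them for the mitotic spindle, and megakaryocytes build from them the shafts along which platelets form and the ring that keeps a resting platelet flat. Tubb1 encodes the β-tubulin of megakaryocytes and platelets, Tuba4a an α-tubulin that platelets use, and Tuba8 an α-tubulin better known from muscle and testis that has also been found in platelets. Tuba1a, Tuba1b, Tuba1c, Tubb4b and Tubb5 are made in many dividing cells, Tubb2a is best known from neurons, and Tubb6 is a minor, widely made isotype.

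The WT libraries stood apart from the mutant ones in technical measures. VF libraries held 19256431 to 21331168 counts, E12 libraries 20328414 to 23499914 and WT libraries 33838681 to 39736096. Genes without a count made up 10.7% to 12.4% of the table in VF libraries, 12.4% to 18.7% in E12 and 27.2% to 30.1% in WT. The scaling factor of WT 50 was 0.456, against 0.841 and 0.869 in the other WT libraries, so its normalised levels are raised more than theirs relative to plain counts. The labels also carry facility numbers, which for WT are far from those of the mutants. No label says what the numbers mark, so in a comparison with WT the genotype cannot be told apart from it. Of the markers of the sorted type, Klf1, an erythroid transcription factor, averaged 113 ± 46.8 CPM in VF, 716 ± 107 CPM in E12 and 2447 ± 880.3 CPM in WT (SD, n = 3 each). Other erythroid genes did not all follow Klf1 between E12 and WT. Of 24 tested, 6 were higher and 4 lower in E12 than in WT at an unadjusted edgeR p below 0.05. Itga2b, the CD41 of megakaryocytes, averaged 541 ± 35.4 CPM in VF, 127 ± 16.6 CPM in E12 and 7.41 ± 6.18 CPM in WT (SD, n = 3 each), and Itgb3, Ppbp and Thbs1 had no count in any WT library, while Gp6 was at or near 0 in all groups. In bulk samples fewer cells of a type and less RNA per cell cannot be told apart.

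Promoter sequences are shown for Tuba8, Tubb2a and Tubb4b, the members whose calls between VF and WT held under every setting tried, and for Tubb1, the megakaryocyte isotype. Each is the RefSeq window on GRCm38.p6 from 250 bases before the gene's start to 50 bases after it, written 5′ to 3′ on the gene's strand. They lie at chr6:121210484-121210783 on the plus strand (Tuba8), chr13:34077959-34078258 on the minus strand (Tubb2a), chr2:25224653-25224952 on the minus strand (Tubb4b) and chr2:174450345-174450644 on the plus strand (Tubb1). Capitals mark the 5 motifs searched, each on both strands, which were CCAAT of the CCAAT box, GATAA read by GATA factors, TGANTCA read by AP-1, TATAA of the TATA box and CCGGAA read by ETS factors.
Tuba8: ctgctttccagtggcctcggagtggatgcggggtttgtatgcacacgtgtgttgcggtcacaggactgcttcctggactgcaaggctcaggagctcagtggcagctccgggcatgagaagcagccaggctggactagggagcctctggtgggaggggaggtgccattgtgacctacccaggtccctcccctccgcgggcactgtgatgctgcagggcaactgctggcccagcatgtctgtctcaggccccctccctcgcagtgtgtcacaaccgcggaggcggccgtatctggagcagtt
Tubb2a: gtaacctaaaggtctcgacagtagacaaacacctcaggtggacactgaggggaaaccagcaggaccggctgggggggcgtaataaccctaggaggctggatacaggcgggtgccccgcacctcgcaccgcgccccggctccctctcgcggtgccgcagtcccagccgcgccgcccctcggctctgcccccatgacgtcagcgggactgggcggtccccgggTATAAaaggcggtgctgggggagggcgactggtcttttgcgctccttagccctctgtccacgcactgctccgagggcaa
Tubb4b: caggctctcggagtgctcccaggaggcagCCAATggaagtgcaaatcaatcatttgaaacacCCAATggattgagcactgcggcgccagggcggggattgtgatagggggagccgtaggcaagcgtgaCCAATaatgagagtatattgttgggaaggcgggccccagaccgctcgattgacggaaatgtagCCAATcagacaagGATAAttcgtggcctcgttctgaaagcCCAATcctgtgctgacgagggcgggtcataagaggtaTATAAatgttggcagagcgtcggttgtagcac
Tubb1: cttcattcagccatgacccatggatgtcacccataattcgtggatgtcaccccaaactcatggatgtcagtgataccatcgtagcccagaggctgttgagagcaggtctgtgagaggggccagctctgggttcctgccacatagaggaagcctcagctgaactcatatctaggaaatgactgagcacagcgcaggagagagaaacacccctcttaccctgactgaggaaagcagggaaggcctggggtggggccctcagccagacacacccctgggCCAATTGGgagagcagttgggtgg

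The sequences differ in which motifs they hold. The Tubb4b window holds 5 matches to CCAAT and 1 each to GATAA and to TATAA. Tubb2a holds 1 TATAA, and Tubb1 holds CCAATTGG, which is CCAAT on both strands overlapping. Tuba8 holds none of the 5. Over the 9 members found in the RefSeq promoter table, CCAAT was present in 5, against 37.4% of all 32851 promoters of that length. TATAA was present in 4 members (24.9% of all), GATAA in 2 (25.4%), and neither TGANTCA (7.81%) nor CCGGAA (14.9%) in any. A match is a run of letters and no measured site.

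The members lie apart from each other on GRCm38 except for a cluster on chromosome 15, where Tuba1b spans 98931429 to 98934390, Tuba1a 98949847 to 98953501 and Tuba1c 99029891 to 99038105. Tuba8 spans 121210734 to 121226098 on chromosome 6 and Tuba4a 75214972 to 75221261 on chromosome 1. Tubb2a spans 34074278 to 34078008 on chromosome 13, Tubb5 35833920 to 35838301 on chromosome 17, and Tubb4b and Tubb1 lie on chromosome 2 at 25222158 to 25224702 and 174450595 to 174458380.

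Because no source used here gives the counting rule for reads that match several genes, the likeness of the transcripts bears on the values. Of the 50-base windows in the GENCODE transcript, 83.1% in Tuba1b, 75.5% in Tuba1a and 61.0% in Tuba1c also occur in another gene, mostly in each other and in pseudogenes, so the split among these genes is uncertain. Tubb4b shared 55.5% of its windows, mainly with pseudogenes, and Tubb2a shared 49.6%, of which Tubb2b held most. Tuba4a shared 48.8%, nearly all with Stk16, a kinase gene on the opposite strand whose exons overlap it over 1379 bases. Tuba8 shared 14.7%, nearly all with the opposite-strand gene Gm15856, Tubb5 shared 0.115%, and Tubb1 and Tubb6 shared 0%. Smart-Seq2 libraries carry no strand, so reads of Tuba4a and Stk16 in the overlap cannot be told apart.

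Tubb5 was the most abundant isotype in all 3 groups. Per length it reached 740.1 ± 87.2 RPKM in VF, 706 ± 15.2 RPKM in E12 and 1811 ± 1158 RPKM in WT (SD, n = 3 each). RPKM here is reads per 1000 bases of the deposited gene length per 1000000 scaled reads, and it was used wherever levels of different genes are compared. In VF the next was Tuba1b at 209 ± 12.5 RPKM, followed by Tubb4b at 145 ± 10.6, Tuba4a at 141 ± 8.72, Tuba8 at 132 ± 26.5 and Tuba1c at 111 ± 4.88 RPKM, and neighbours among these last 4 overlapped in their libraries. Tuba1a followed at 46.8 ± 1.22 RPKM, Tubb6 at 8.95 ± 0.174, Tubb2a at 4.58 ± 0.681 and Tubb1 at 0.898 ± 0.312 RPKM.

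The order differed in the other groups, mainly in the place of Tuba8. In E12 Tubb4b at 352 ± 54.7 RPKM and Tuba1b at 339 ± 16.1 RPKM overlapped behind Tubb5, then came Tuba4a at 216 ± 32.7 and Tuba1c at 183 ± 10.01 RPKM, which also overlapped, Tuba1a at 57.0 ± 2.37, Tuba8 at 32.4 ± 6.48, Tubb2a at 15.5 ± 2.30, Tubb6 at 4.06 ± 1.99 and Tubb1 at 0.648 ± 0.293 RPKM. In WT Tubb4b at 689.5 ± 253, Tuba1b at 419.5 ± 69.6, Tuba4a at 283 ± 119 and Tuba1c at 258 ± 46.8 RPKM formed a run of overlapping neighbours. Tuba1a stood at 64.2 ± 9.47 RPKM in WT, Tuba8 at 24.6 ± 9.88 and Tubb2a at 19.8 ± 1.83 RPKM overlapped, and Tubb6 at 1.54 ± 1.43 and Tubb1 at 0.0984 ± 0.170 RPKM overlapped at the bottom. Together the 10 genes took 0.385% to 0.449% of all counts in VF libraries, 0.4275% to 0.482% in E12 and 0.472% to 0.544% in WT.

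**Figure D1:**
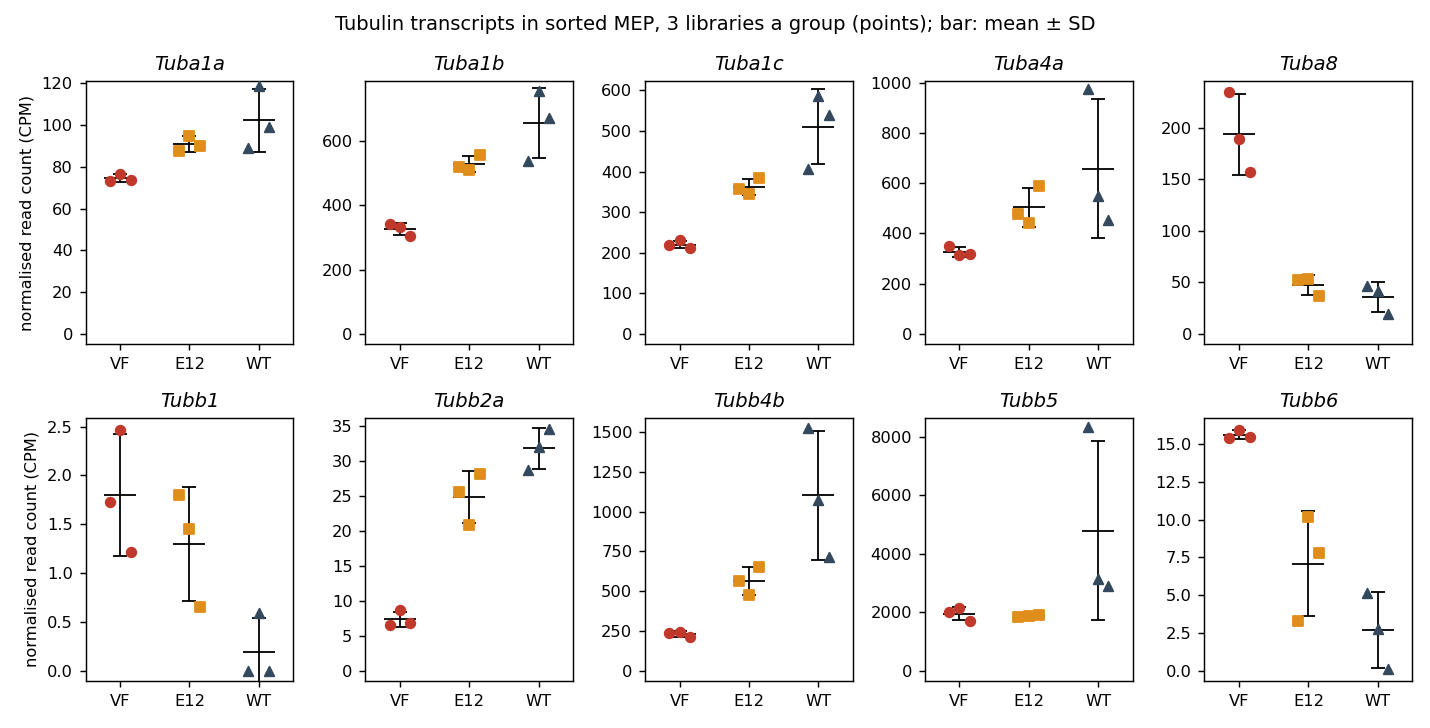
Normalised read counts (CPM, counts per 1000000 scaled reads) of the 10 tubulin genes, 1 panel each on its own linear axis, with a point for each library of VF, E12 and WT and a bar for the mean ± SD. Tuba8 stands between 157 and 234 CPM in VF and between 19.7 and 53.4 CPM in the other groups, while Tubb2a and Tubb4b are lowest in VF.

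VF cells were compared with WT cells at the same 12 weeks. The groups differ in the V617F mutation, but also in the SclCre label, depth and facility numbers, and these cannot be told apart. In VF, 1 of the 10 members rose and 6 fell, against 27.7% and 20.9% of all tested genes that were higher and lower. The member that rose was Tuba8, and Tuba1b, Tuba1c, Tuba4a, Tubb2a, Tubb4b and Tubb5 fell, although on the deposited levels, a second normalization described with the processing, Tuba1b (log2 fold change 0.27), Tuba4a (0.43) and Tubb5 (0.40) had the other sign without passing the test. In either direction 48.6% of all genes were called, which is the background to the 7 calls. The median log2 fold change of the members was −1.005, against 0.36 for all tested genes, so values below are relative to a table whose middle was not at 0. All 10 members had groups that did not overlap, as had 62.7% of all tested genes.

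Tuba8 had 234, 189 and 157 CPM in VF 1, 2 and 3, against 46.9, 42.0 and 19.7 CPM in WT 50, 51 and 52. Every VF library lay far above every WT library. The means were 193 ± 38.9 CPM in VF and 36.2 ± 14.5 CPM in WT (SD, n = 3 each), a 5.35-fold difference, and the log2 fold change was 2.42 ± 0.36 (SE, edgeR quasi-likelihood test, Benjamini-Hochberg adjusted p = 0.0011). Tuba8 kept its direction and its call in all 18 alternative fits, with log2 fold changes between 1.84 and 3.03.

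Tubb4b and Tubb2a showed the steepest falls. Tubb4b had 239.6, 244 and 213 CPM in VF 1, 2 and 3, against 1523, 1072 and 714 CPM in WT 50, 51 and 52. The VF libraries lay close together and below all WT libraries, which spread widely. The means were 232 ± 16.9 CPM in VF and 1103 ± 405 CPM in WT (SD, n = 3 each), 4.75-fold lower in VF, with a log2 fold change of −2.25 ± 0.33 (SE, edgeR adjusted p = 0.0011), and it kept this direction and call in all 18 alternatives, between −2.77 and −0.82. Fam166a, whose exons overlap Tubb4b over 121 bases on the opposite strand, moved the same way, at 29.8 ± 2.91 CPM in VF and 114.5 ± 35.6 CPM in WT (log2 fold change −1.94, edgeR adjusted p = 0.0011), and whether reads were counted for both genes was not tested.

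Tubb2a had 6.60, 8.61 and 6.85 CPM in VF 1, 2 and 3, against 28.7, 32.0 and 34.6 CPM in WT 50, 51 and 52. No VF library came near a WT library, and in both groups the libraries lay close together. The means were 7.35 ± 1.09 CPM in VF and 31.8 ± 2.94 CPM in WT (SD, n = 3 each), 4.32-fold lower in VF, with a log2 fold change of −2.11 ± 0.27 (SE, edgeR adjusted p = 0.00060) that stayed between −2.94 and −1.75 in the 18 alternatives and kept its call in each. Tubb2b, its near copy, fell alongside, with 2.61 ± 0.395 CPM in VF and 9.77 ± 1.55 CPM in WT (log2 fold change −1.90, edgeR adjusted p = 0.0049), and reads may be split between the pair.

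Tuba1b and Tuba1c, the α-tubulins of most dividing cells, were both lower in VF on the counts. Tuba1c had 219.9, 230.3 and 211 CPM in VF 1, 2 and 3, against 407, 586 and 539 CPM in WT 50, 51 and 52. Tuba1b had 342, 334 and 305 CPM in VF 1, 2 and 3, against 539.7, 755 and 671 CPM in WT 50, 51 and 52. For both genes the lowest WT library was WT 50, and it still lay above all VF libraries. The log2 fold changes were −1.21 ± 0.24 for Tuba1c (SE, edgeR adjusted p = 0.0037) and −1.003 ± 0.24 for Tuba1b (SE, edgeR adjusted p = 0.0084), but on the deposited levels they were −0.03 for Tuba1c (limma adjusted p = 0.94) and 0.27 for Tuba1b (limma adjusted p = 0.52), so the call of each is lost under that normalization.

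Tuba1a, the third gene of the chromosome 15 cluster, had 73.1, 76.7 and 73.6 CPM in VF 1, 2 and 3, against 89.1, 119 and 98.9 CPM in WT 50, 51 and 52. The groups did not overlap, but the gap was small, and the log2 fold change of −0.46 ± 0.20 (SE) did not pass the test (edgeR adjusted p = 0.082). It passed in 7 of the 18 alternatives, which were RLE scaling (edgeR adjusted p = 0.027), DESeq2 (DESeq2 adjusted p = 0.00060), no filter on low counts (edgeR adjusted p = 0.047), and the fits without WT 50 (0.0057), WT 51 (0.047), WT 52 (0.0068) or WT 50 and E12 5 together (0.012).

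Tubb5 and Tuba4a had lower counts in VF, and for both WT 50 stood above the other WT libraries. Tubb5 had 2007, 2159 and 1706 CPM in VF 1, 2 and 3, against 8323, 3150.5 and 2898 CPM in WT 50, 51 and 52. The VF libraries lay below all WT libraries, of which WT 50 was by far the highest. The log2 fold change was −1.29 ± 0.44 (SE, edgeR adjusted p = 0.036), and the sign turned on the deposited levels, where it was 0.40 (limma adjusted p = 0.12). The call was lost without VF 1 (edgeR adjusted p = 0.10), VF 2 (0.087), VF 3 (0.12), E12 1 (0.061), E12 2 (0.063) or E12 5 (0.060). It was also lost in the fit of VF and WT libraries alone, and 10 of the 18 alternatives kept it.

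Tuba4a had 351, 313 and 319 CPM in VF 1, 2 and 3, against 973, 547 and 454 CPM in WT 50, 51 and 52. Again no library overlapped and WT 50 was the highest. The log2 fold change was −1.01 ± 0.32 (SE, edgeR adjusted p = 0.029), and the sign turned on the deposited levels, where it was 0.43 (limma adjusted p = 0.0998). Leaving out VF 1 (edgeR adjusted p = 0.077), VF 2 (0.098) or VF 3 (0.096) ended the call. The fit of VF and WT libraries alone also ended it, and 13 of the 18 alternatives kept it. Stk16, whose exons overlap it on the opposite strand, averaged 204 ± 10.95 CPM in VF and 337 ± 143 CPM in WT (edgeR adjusted p = 0.071).

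Tubb6 and Tubb1, the rarest isotypes in WT, were higher in CPM in all VF libraries than in any WT library, without passing the test. Tubb6 had 15.4, 15.95 and 15.5 CPM in VF 1, 2 and 3, against 5.13, 2.77 and 0.136 CPM in WT 50, 51 and 52. The VF values were nearly equal, while the WT values differed widely among themselves. The log2 fold change was 2.55 ± 0.95 (SE, edgeR adjusted p = 0.051), and it passed without WT 50 (edgeR adjusted p = 0.024, log2 fold change 3.21) and without WT 52 (0.031, log2 fold change 1.69).

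Tubb1, the megakaryocyte β-tubulin, was scarce in all groups and at or near the limit of detection in WT. It had 46, 66 and 30 counts in VF 1, 2 and 3, 46, 38 and 15 counts in E12 1, 2 and 5, and 0, 19 and 0 counts in WT 50, 51 and 52. Scaled, these were 1.73, 2.46 and 1.22 CPM in VF, 1.80, 1.45 and 0.651 CPM in E12, and 0, 0.592 and 0 CPM in WT, where a count of 0 allows up to 0.166 CPM in WT 50 and 0.102 CPM in WT 52 (3 counts, counting error only). In CPM both mutant groups lay above all WT libraries, yet even the highest library held under 3 CPM. On the deposited log2 levels WT 51 (0.20) lay above VF 1 (−0.25), VF 3 (−0.97) and E12 5 (−1.91), so both mutant groups overlapped WT there. On the counts the log2 fold changes were 3.10 ± 1.41 for VF against WT (SE, edgeR adjusted p = 0.096) and 2.63 ± 1.39 for E12 against WT (SE, edgeR adjusted p = 0.15). Without WT 51, the only WT library with a count, they were 8.47 (edgeR adjusted p = 0.0035) and 7.99 (0.0068), which are fits against a group at 0 and no bound on the fold. Without WT 50 they were 2.37 (0.14) and 1.89 (0.24), and without WT 52 2.28 (0.14) and 1.80 (0.23).

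The low Tubb1 stood beside a clear rise of other megakaryocyte genes in VF. Of 21 megakaryocyte genes tested, 18 were higher in VF than in WT and 0 were lower, against 27.7% and 20.9% of all tested genes. At an unadjusted edgeR p below 0.05 the counts were 21 and 0, and the median log2 fold change of the megakaryocyte genes was 5.01. Their summed level was 3264 to 4012 CPM in VF libraries, 735 to 827 CPM in E12 and 159 to 352 CPM in WT. Pf4, the platelet chemokine, averaged 705 ± 189 CPM in VF and 55.6 ± 64.1 CPM in WT (SD, n = 3 each, edgeR adjusted p = 0.0057). Over 9 libraries, the tested genes of at least 10 CPM whose profiles of log2(CPM + 0.5) lay nearest to that of Tubb1 included Rfx7, Rsad1, Mycbp2 and Pgam1, with root mean square differences of 0.281, 0.339, 0.3395 and 0.341 among 8987 candidates. With the 0.5 added, the profile of a gene as low as Tubb1 is compressed, so genes with steeper differences lie farther from it by construction. The same rule, applied to Tuba8 after its values were seen, gave Serpinb1a, Ctla2a, Dhrs3, Cmtm3 and Matk, with differences of 0.254, 0.296, 0.306, 0.314 and 0.330.

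**Figure D2:**
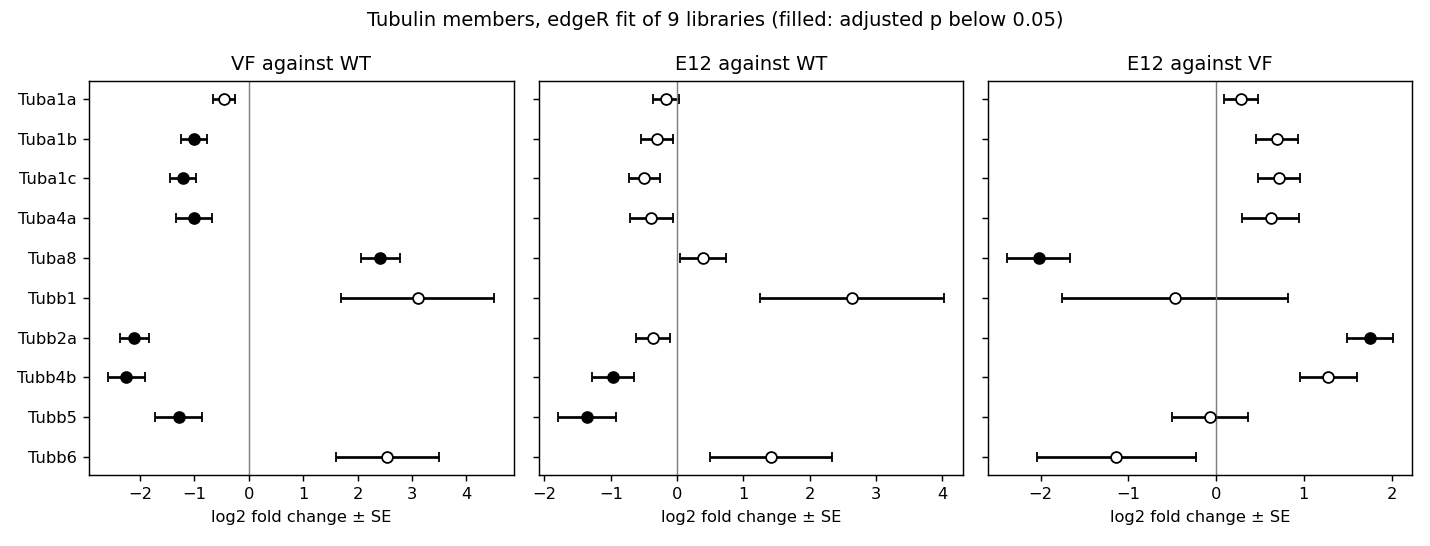
Log2 fold changes ± SE of the 10 tubulin genes in the 3 comparisons, from 1 edgeR fit of 9 libraries, with filled points where the adjusted p was below 0.05. Tuba8 is the 1 filled point right of 0 in VF against WT, and Tuba8 and Tubb2a are the 2 filled points in E12 against VF, on opposite sides of 0.

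E12 cells were compared with the same WT libraries, a comparison that also differs in weeks after tamoxifen and shares its controls with the one above. None of the 10 members rose and 2 fell, Tubb4b and Tubb5, while 23.9% of all tested genes were higher and 18.1% lower (42% in either direction). At an unadjusted edgeR p below 0.05 the counts were also 0 higher and 2 lower, DESeq2 called 0 higher and 6 lower, and limma-voom called 1 higher and 2 lower. Over all 13608 genes DESeq2 called 3601 higher and 3341 lower, and limma-voom called 4141 higher and 2253 lower. The median log2 fold change of the members was −0.33, against 0.36 for all tested genes. The groups did not overlap for 5 members, Tuba1c, Tubb1, Tubb2a, Tubb4b and Tubb5, while 53.3% of all genes did not overlap.

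Tubb4b had 566, 474 and 649 CPM in E12 1, 2 and 5, against 1523, 1072 and 714 CPM in WT 50, 51 and 52. The highest E12 library lay just under the lowest WT library. The log2 fold change was −0.97 ± 0.32 (SE, edgeR adjusted p = 0.036), and it was 0.32 on the deposited levels (limma adjusted p = 0.28). The call was lost without VF 1 (edgeR adjusted p = 0.068), VF 2 (0.068), VF 3 (0.067), E12 1 (0.099), E12 2 (0.13) or E12 5 (0.069). It was also lost in the fit of E12 and WT libraries alone and with the length offset, and 9 of the 18 alternatives kept it.

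Tubb5 had 1829.7, 1865 and 1909.7 CPM in E12 1, 2 and 5, against 8323, 3150.5 and 2898 CPM in WT 50, 51 and 52. The E12 libraries were nearly equal and all lay below WT. The log2 fold change was −1.36 ± 0.44 (SE, edgeR adjusted p = 0.034), and it was 0.26 on the deposited levels (limma adjusted p = 0.30). The call was lost without VF 1 (edgeR adjusted p = 0.062), VF 2 (0.060), VF 3 (0.060), E12 1 (0.10), E12 2 (0.10) or E12 5 (0.095). It was also lost in the fit of E12 and WT libraries alone, and 10 of the 18 alternatives kept it.

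Tuba8, which rose in VF, had 52.6, 53.4 and 36.6 CPM in E12 1, 2 and 5, against 46.9, 42.0 and 19.7 CPM in WT 50, 51 and 52. The groups overlapped, and the log2 fold change of 0.40 ± 0.34 (SE, edgeR adjusted p = 0.38) was −0.19 without WT 52. Tubb2a had 25.5, 20.8 and 28.1 CPM in E12 1, 2 and 5, against 28.7, 32.0 and 34.6 CPM in WT 50, 51 and 52. The E12 libraries lay just below all WT libraries, with a log2 fold change of −0.36 ± 0.26 (SE, edgeR adjusted p = 0.29) that was 0.11 with an offset for gene length.

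The mean of each of the 3 genes of the chromosome 15 cluster lay between those of VF and WT. Tuba1c had 358, 345 and 384 CPM in E12 1, 2 and 5 and Tuba1b had 520.1, 511 and 558 CPM, against the WT values given above, with log2 fold changes of −0.49 (edgeR adjusted p = 0.12) and −0.31 (0.32). Without WT 50 both passed the test, Tuba1c at −0.77 (edgeR adjusted p = 0.0022) and Tuba1b at −0.56 (0.013), and Tuba1c also without WT 52 (0.024). Tuba1a had 87.5, 94.9 and 89.7 CPM in E12 1, 2 and 5, of which only E12 1 lay below the WT range, with a log2 fold change of −0.17 (edgeR adjusted p = 0.51).

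Tuba4a had 478, 443 and 589 CPM in E12 1, 2 and 5, which overlapped the WT libraries, and its log2 fold change was −0.39 (edgeR adjusted p = 0.36). It was −0.89 without WT 52 (edgeR adjusted p = 0.043) and 0.86 on the deposited levels (limma adjusted p = 0.011), 2 calls of opposite sign. Tubb6 had 3.32, 10.2 and 7.77 CPM in E12 1, 2 and 5, against the WT values above, with a log2 fold change of 1.41 ± 0.92 (SE, edgeR adjusted p = 0.24). E12 1 lay within the WT range and the other E12 libraries above it.

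E12 cells were then compared with VF cells, a comparison of mutants whose depth was close and whose weeks after tamoxifen differ. In E12, 1 member was higher, Tubb2a, and 1 lower, Tuba8, against 2.19% and 1.02% of all tested genes (3.21% in either direction). The median log2 fold change of the members was 0.45, against −0.05 for all tested genes. For 8 members the groups did not overlap, all but Tubb1 and Tubb5, as for 59.5% of all genes.

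Tuba8 had 52.6, 53.4 and 36.6 CPM in E12 1, 2 and 5, against 234, 189 and 157 CPM in VF 1, 2 and 3. The lowest VF library stood well above the highest E12 library. The mean was 4.07-fold lower in E12, with a log2 fold change of −2.02 ± 0.36 (SE, edgeR adjusted p = 0.023). The direction held under every setting tried, while the call was lost without VF 1 (edgeR adjusted p = 0.13), VF 2 (0.096), VF 3 (0.10), E12 1 (0.11), E12 2 (0.085) or E12 5 (0.12).

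Tubb2a had 25.5, 20.8 and 28.1 CPM in E12 1, 2 and 5, against 6.60, 8.61 and 6.85 CPM in VF 1, 2 and 3. Each E12 library held more than any VF library by a wide margin. The mean was 3.37-fold higher in E12, with a log2 fold change of 1.75 ± 0.26 (SE, edgeR adjusted p = 0.014). The call was kept without E12 2 (edgeR adjusted p = 0.042) and lost without VF 1 (0.11), VF 2 (0.067), VF 3 (0.12), E12 1 (0.077) or E12 5 (0.070). Tubb2b moved with it, at 8.97 ± 2.70 CPM in E12 and 2.61 ± 0.395 CPM in VF (edgeR adjusted p = 0.048), and that call was lost without any 1 of the VF or E12 libraries (edgeR adjusted p between 0.095 and 0.26).

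Tubb4b, Tuba1b and Tuba1c were at higher levels in every E12 library than in any VF library but did not pass the test. Tubb4b averaged 563 ± 87.5 CPM in E12 and 232 ± 16.9 CPM in VF (SD, n = 3 each), 2.43-fold, with a log2 fold change of 1.28 ± 0.32 (SE, edgeR adjusted p = 0.069). It passed without WT 50 (edgeR adjusted p = 0.0044) and without WT 52 (0.023), which enter the shared estimate of the spread. Tuba1b averaged 529.8 ± 25.1 CPM in E12 and 327 ± 19.6 CPM in VF, and Tuba1c 362 ± 19.8 CPM in E12 and 220.4 ± 9.64 CPM in VF (SD, n = 3 each), with log2 fold changes of 0.70 ± 0.24 (SE, edgeR adjusted p = 0.16) and 0.72 ± 0.24 (SE, edgeR adjusted p = 0.14). Without WT 50 these had adjusted p-values of 0.0083 and 0.0061.

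When the fit held the 6 mutant libraries alone, 8 of the 10 members passed, 6 higher in E12 (Tuba1a, Tuba1b, Tuba1c, Tuba4a, Tubb2a and Tubb4b) and 2 lower (Tuba8 and Tubb6). In that fit 3388 of all genes were higher and 3024 lower, against 298 and 139 in the fit of all 9 libraries, so the background was far larger too. Tuba4a averaged 504 ± 76.2 CPM in E12 and 328 ± 20.3 CPM in VF (SD, n = 3 each), with a log2 fold change of 0.62 ± 0.32 in the fit of all libraries (SE, edgeR adjusted p = 0.37), and it passed without WT 50 (edgeR adjusted p = 0.031). Tuba1a averaged 90.7 ± 3.77 CPM in E12 and 74.4 ± 1.94 CPM in VF (SD, n = 3 each, edgeR adjusted p = 0.50). Tubb6 averaged 7.09 ± 3.48 CPM in E12 and 15.6 ± 0.304 CPM in VF (SD, n = 3 each, edgeR adjusted p = 0.57). Tubb5 was nearly the same, at 1868 ± 40.1 CPM in E12 and 1958 ± 231 CPM in VF (SD, n = 3 each), with a log2 fold change of −0.07 ± 0.43 (SE, edgeR adjusted p = 0.96). Tubb1 differed by −0.47 ± 1.29 on the log2 scale (SE, edgeR adjusted p = 0.89).

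**Figure D3:**
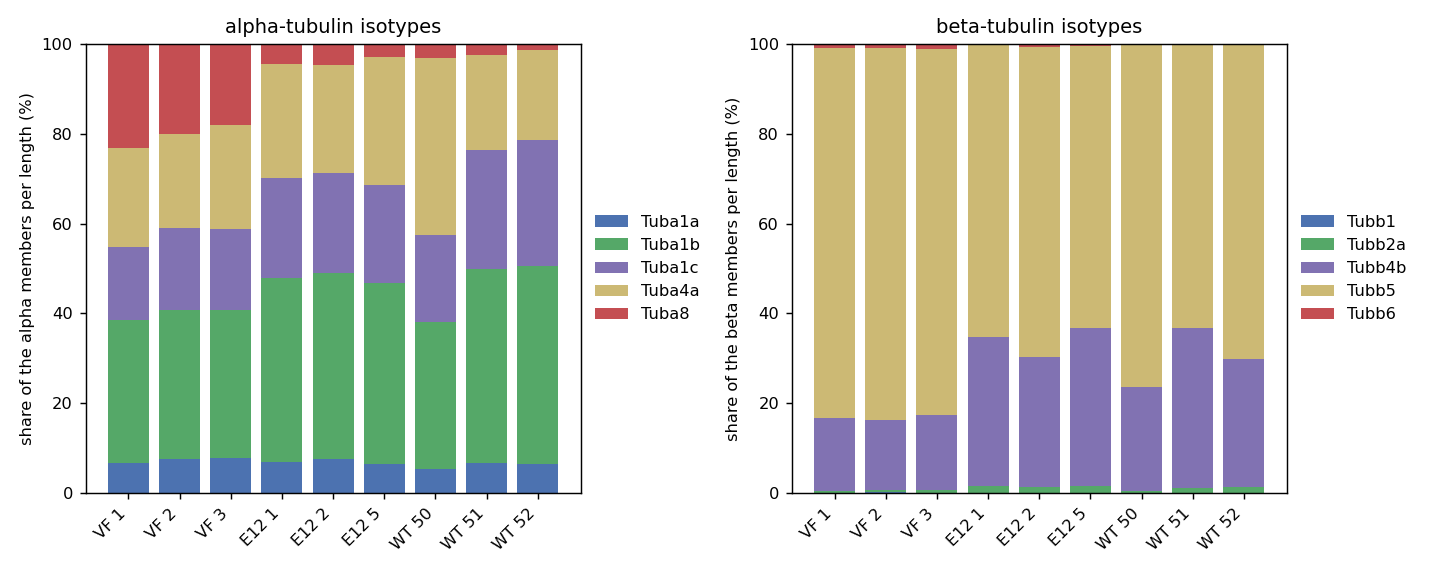
Share of each isotype in the summed per-length level of the 5 α-tubulin members (left) and of the 5 β-tubulin members (right), as stacked bars that reach 100% in each of the 9 libraries, with VF first, then E12 and WT. Tuba8 takes 18.05% to 23.3% of the α members in VF libraries and at most 4.62% in the others, and Tubb4b takes 15.5% to 16.8% of the β members in VF and at least 23.1% in the others.

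Shares within a library do not depend on how libraries are scaled, and the makeup of the α and β pools was compared per length. In shares of plain counts, without division by length, every difference named below kept its sign, but 6 of the 10 between E12 and VF and 2 of the 10 between VF and WT moved by more than the spread between libraries, among them Tuba8, at 15.01 points in VF against WT and −13.7 points in E12 against VF. With 3 libraries against 3, an exact two-sided permutation test cannot go below p = 0.1, and over the 30 tests the Benjamini-Hochberg adjusted value of such a p was 0.1765, so none can pass. Among the α members Tuba8 made up 23.3%, 20.0% and 18.05% in VF 1, 2 and 3, 4.42%, 4.62% and 2.81% in E12 1, 2 and 5, and 3.02%, 2.56% and 1.38% in WT 50, 51 and 52. VF stood apart from both other groups, and E12 overlapped WT. The mean share was 18.1 points higher in VF than in WT (exact permutation p = 0.1), 16.5 points lower in E12 than in VF (a difference of −16.5 points, exact permutation p = 0.1) and 1.63 points higher in E12 than in WT (exact permutation p = 0.2).

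The other α shares were spread over the remaining members. Tuba1b held 32.7 ± 0.742% in VF, 41.0 ± 0.592% in E12 and 40.0 ± 6.38% in WT, and Tuba1c held 17.5 ± 1.09% in VF, 22.1 ± 0.210% in E12 and 24.7 ± 4.55% in WT (SD, n = 3 each). Tuba4a held 22.0 ± 1.11% in VF, 26.0 ± 2.28% in E12 and 26.9 ± 10.97% in WT, where WT 50 had 39.5% and WT 51 and 52 had 21.0% and 20.1%. Tuba1a kept a small share in each group, at 7.34 ± 0.580% in VF, 6.91 ± 0.610% in E12 and 6.12 ± 0.725% in WT (SD, n = 3 each).

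Among the β members Tubb5 and Tubb4b made up nearly the whole pool, so the share of each mirrors the other. Tubb4b made up 16.2%, 15.5% and 16.8% in VF 1, 2 and 3, 33.2%, 29.0% and 35.3% in E12 1, 2 and 5, and 23.1%, 35.6% and 28.5% in WT 50, 51 and 52. VF lay below both other groups, and the E12 and WT libraries were intermixed. Tubb5 made up 82.2 ± 0.725% in VF, 65.6 ± 3.18% in E12 and 69.9 ± 6.57% in WT (SD, n = 3 each), 12.3 points higher in VF than in WT (exact permutation p = 0.1). The share of Tubb4b differed by −12.9 points in VF against WT and by 16.3 points in E12 against VF (exact permutation p = 0.1 each), and by 3.44 points in E12 against WT (exact permutation p = 0.5).

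The minor β isotypes filled the rest. Tubb6 made up 1.002 ± 0.104% in VF, 0.379 ± 0.196% in E12 and 0.0536 ± 0.0426% in WT, and Tubb2a made up 0.510 ± 0.0556% in VF, 1.43 ± 0.137% in E12 and 0.957 ± 0.480% in WT (SD, n = 3 each). The summed β level over the summed α level, per length, was 1.344, 1.536 and 1.337 in VF 1, 2 and 3, 1.314, 1.295 and 1.298 in E12 1, 2 and 5, and 3.898, 1.684 and 1.608 in WT 50, 51 and 52. WT 50 stood far above all other libraries, where Tubb5 reached 8323 CPM, and the ratio was higher in each WT library than in any mutant library.

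The other tubulin genes were scarcer than the members. Of 10, 7 were tested, and in VF against WT 2 were higher and 4 lower, against 27.7% and 20.9% of all tested genes. The median log2 fold change of the 7 was −1.50. Tubg1, the γ-tubulin that starts new microtubules, fell to 68.7 ± 3.52 CPM in VF, against 210.4 ± 46.9 CPM in WT (SD, n = 3 each, log2 fold change −1.62, edgeR adjusted p = 0.0010), and it stood at 112 ± 12.4 CPM in E12 (E12 against WT −0.91, edgeR adjusted p = 0.013, lost on the deposited levels, limma adjusted p = 0.17). Tubb4a, a β-tubulin best known from brain, rose to 1.85 ± 0.281 CPM in VF, against 0.0732 ± 0.0252 CPM in WT (SD, n = 3 each, log2 fold change 4.56, edgeR adjusted p = 0.0015). Tubb3, a neuronal β-tubulin, was called higher at 0.600 ± 0.435 CPM in VF and 0.0769 ± 0.0768 CPM in WT (edgeR adjusted p = 0.039), but the log2 fold change was 2.99 on the counts and −0.95 on the deposited levels. In E12 against WT 2 of the 7 were higher and 2 lower, against 23.9% and 18.1% of all tested genes. In E12 against VF 1 was higher, Tubb2b, and 0 lower, against 2.19% and 1.02% (3 and 1 at an unadjusted edgeR p below 0.05, 2 and 1 with DESeq2).

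Tubulin has to be folded by the chaperonin CCT, which takes it from prefoldin, and paired by the tubulin cofactors. Of the 21 genes of these complexes, 14 fell in VF against WT and 0 rose, against 20.9% lower and 27.7% higher over all tested genes (16 and 0 at an unadjusted edgeR p below 0.05), and the median log2 difference was −1.58, which kept its sign with RLE scaling (−1.71), on the deposited levels (−0.28, with 8 calls) and with the length offset (−1.26). In E12 against WT 10 fell and 0 rose (18.1% lower and 23.9% higher over all genes), with a median of −0.88 (11 and 0 at an unadjusted p below 0.05). Without WT 50, 17 fell, while the lower calls over all genes went from 2466 to 3362. The summed level of the 21 genes was 4767 to 5073 CPM in VF libraries, 7262 to 8642 CPM in E12 and 12041 to 15578 CPM in WT. Tcp1, a CCT subunit, fell to 401 ± 14.1 CPM in VF, against 1027 ± 379 CPM in WT (SD, n = 3 each, edgeR adjusted p = 0.0090, lost on the deposited levels, limma adjusted p = 0.98), and it stood at 784 ± 84.4 CPM in E12 (E12 against WT, edgeR adjusted p = 0.36).

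Tbca, the cofactor that holds free β-tubulin, averaged 26.2 ± 3.32 CPM in VF, 27.1 ± 2.30 CPM in E12 and 127 ± 128 CPM in WT (SD, n = 3 each; VF against WT, edgeR adjusted p = 0.014; E12 against WT, 0.018), and both calls were lost with the length offset (0.099 and 0.56). Pfdn5, a prefoldin subunit, averaged 75.4 ± 6.89 CPM in VF, 51.9 ± 5.33 CPM in E12 and 312 ± 293 CPM in WT (SD, n = 3 each; edgeR adjusted p = 0.015 and 0.0083). Tbcd, which helps to pair α with β, was not called in any comparison, at 88.2 ± 1.83 CPM in VF, 122 ± 16.7 CPM in E12 and 120 ± 62.4 CPM in WT (SD, n = 3 each). In E12 against VF none of the 21 passed with edgeR, 2 were higher and 0 lower at an unadjusted p below 0.05, and DESeq2 called 2 higher and 0 lower.

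Calls among genes that modify tubulin after it is made were about as frequent as over all tested genes in the comparisons with WT, whose shares were 27.7% higher and 20.9% lower in VF and 23.9% and 18.1% in E12. Of 23, 21 were in the table and 19 tested. In VF against WT 4 were higher and 5 lower (3 lower without any 1 VF library). In E12 against WT 4 were higher and 4 lower (2 lower without any 1 E12 library). In E12 against VF 1 was higher and 0 lower (3 and 2 at an unadjusted edgeR p below 0.05, 2 and 2 with DESeq2). The lower calls over all genes in VF against WT went from 2842 to 2062, 2042 and 1961 without VF 1, 2 and 3. Those in E12 against WT went from 2466 to 1676, 1323 and 1552 without E12 1, 2 and 5. Vash1, a carboxypeptidase that removes the last tyrosine of α-tubulin, averaged 13.7 ± 0.719 CPM in VF and 2.94 ± 0.777 CPM in E12 (SD, n = 3 each), and it had no count in any WT library. If the WT zeros reflect counting error only, a floor of 3 counts over the WT group makes Vash1 at least 363-fold higher in VF and at least 78.1-fold higher in E12. Genes without a count made up 27.2% to 30.1% in WT libraries, 10.7% to 12.4% in VF and 12.4% to 18.7% in E12. The floor does not cover this difference. E12 was lower than VF in Vash1 by a log2 difference of −2.22 that did not pass (edgeR adjusted p = 0.051). Svbp, the small partner that vasohibins need, went the other way, with 23.6 ± 3.11 CPM in VF, 64.7 ± 7.49 CPM in E12 and 612 ± 567 CPM in WT (SD, n = 3 each). Its log2 fold changes were −4.70 for VF (edgeR adjusted p = 0.00077) and −3.24 for E12 (0.0043), and both calls held under every setting tried.

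Ttl, the ligase that puts the tyrosine back, was not called, at 9.90 ± 1.32 CPM in VF, 8.54 ± 1.03 CPM in E12 and 5.31 ± 1.57 CPM in WT (SD, n = 3 each; edgeR adjusted p = 0.070 and 0.16). Sirt2, a deacetylase of α-tubulin, fell to 54.5 ± 1.81 CPM in VF and 81.5 ± 10.7 CPM in E12, against 236 ± 76.8 CPM in WT (SD, n = 3 each; edgeR adjusted p = 0.00077 and 0.0043), and both calls held under every setting tried. Ttll4, a polyglutamylase, was higher in E12, at 25.5 ± 5.01 CPM, against 7.67 ± 2.87 CPM in WT (SD, n = 3 each; edgeR adjusted p = 0.0072), but not with the length offset (0.44). Agbl5, a deglutamylase, averaged 72.2 ± 2.11 CPM in VF, 59.8 ± 4.75 CPM in E12 and 194 ± 159 CPM in WT (SD, n = 3 each; edgeR adjusted p = 0.035 and 0.021), and the VF call was lost on the deposited levels (limma adjusted p = 0.16).

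Genes of the γ-tubulin ring, which seeds microtubules, and of microtubule binding were set against the same shares of all genes. These were 27.7% higher and 20.9% lower in VF against WT and 23.9% and 18.1% in E12 against WT. Higher calls thus also outnumbered lower ones over all genes. Of 8 ring genes, 5 were higher and 1 lower in VF against WT, with a median of 1.02 that was −0.15 with the length offset. Of 27 binding genes, 7 were higher, near the share of all genes, and 3 lower, with a median of 0.65 that was −0.26 with the offset (11 higher without WT 52). In E12 against WT the ring genes were 5 higher and 1 lower (3 higher without E12 5). The binding genes were 10 higher and 1 lower there (6 higher without E12 1 or E12 2). The higher calls over all genes moved too, in VF against WT from 3770 to 4305 without WT 52. In E12 against WT they went from 3251 to 2575, 2289 and 2417 without E12 1, 2 and 5. Mzt1, a ring subunit, averaged 70.1 ± 5.83 CPM in VF, 63.0 ± 12.9 CPM in E12 and 28.8 ± 11.3 CPM in WT (SD, n = 3 each; edgeR adjusted p = 0.0082 and 0.017). Tubgcp2, a core subunit, was not called, at 98.7 ± 4.19 CPM in VF, 101 ± 15.5 CPM in E12 and 105 ± 49.7 CPM in WT (SD, n = 3 each).

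Stmn1, which binds free tubulin pairs, averaged 542 ± 40.7 CPM in VF, 415 ± 26.0 CPM in E12 and 1789 ± 1596 CPM in WT (SD, n = 3 each; edgeR adjusted p = 0.028 and 0.015), and in VF against WT its log2 fold change of −1.72 was 0.10 on the deposited levels. Mapre1, which tracks growing ends, averaged 300.5 ± 7.58 CPM in VF and 556 ± 102 CPM in WT (SD, n = 3 each; edgeR adjusted p = 0.014), with a log2 fold change of −0.89 that was 0.38 on the deposited levels. Map4, Ckap5 and Camsap1, which stabilise or extend microtubules, were not called against WT (edgeR adjusted p = 0.076, 0.069 and 0.20 in VF and 0.079, 0.064 and 0.96 in E12).

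Of 17 genes of the motors dynein, dynactin and kinesin-1, 3 were higher and 6 lower in VF against WT (3 lower without VF 1 or VF 3). In E12 against WT 2 were higher and 4 lower (2 lower without E12 2). The shares of all genes were 27.7% and 20.9% in VF and 23.9% and 18.1% in E12. The lower calls over all genes in VF against WT went from 2842 to 2062 without VF 1 and 1961 without VF 3. Those in E12 against WT went from 2466 to 1323 without E12 2. In E12 against VF 0 motor genes were called with edgeR (1 higher and 1 lower at an unadjusted p below 0.05, 1 higher with DESeq2). Dync1h1, the dynein heavy chain, averaged 126 ± 11.6 CPM in VF, 127 ± 7.98 CPM in E12 and 77.0 ± 8.07 CPM in WT (SD, n = 3 each; edgeR adjusted p = 0.017 and 0.018), and its log2 fold changes of 0.71 and 0.73 were −0.81 and −0.48 with the length offset. Dctn1 and Kif5b were not called (edgeR adjusted p = 0.24 and 0.16 in VF and 0.12 and 0.15 in E12).

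Cells degrade tubulin mRNA when free tubulin is in excess, through Ttc5, which recognises the new chain, and the adaptor Scaper. Ttc5 was not called, at 82.9 ± 7.66 CPM in VF, 57.7 ± 8.24 CPM in E12 and 101 ± 42.4 CPM in WT (SD, n = 3 each; edgeR adjusted p = 0.47 and 0.065). Scaper averaged 11.9 ± 0.837 CPM in VF, 7.32 ± 0.705 CPM in E12 and 1.87 ± 1.89 CPM in WT (SD, n = 3 each; edgeR adjusted p = 0.010 and 0.038), and neither call held with the length offset (0.054 and 0.24).

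**Figure D4:**
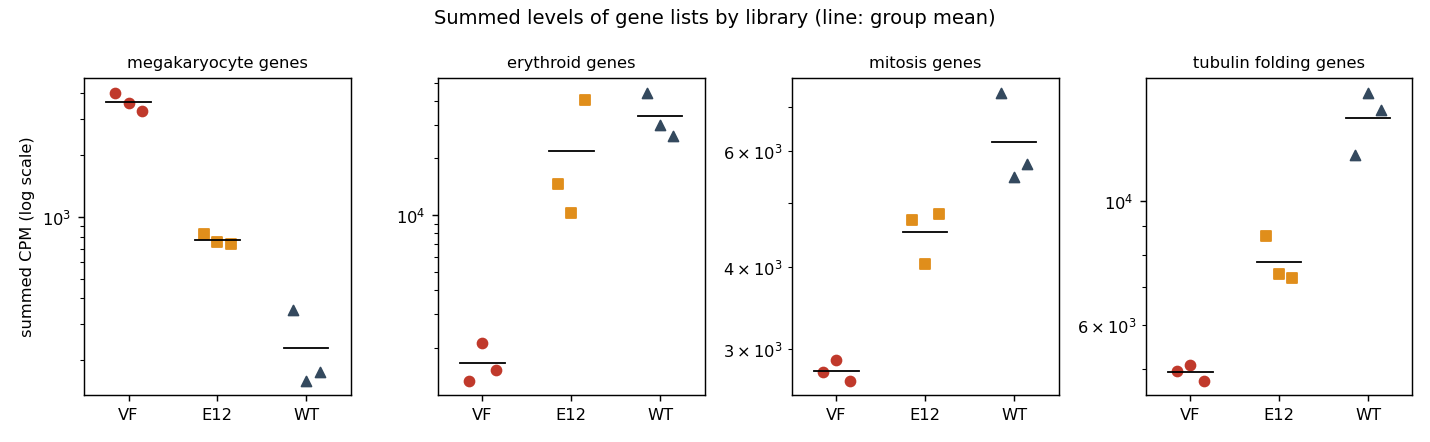
Summed normalised counts (CPM, log axis) of the megakaryocyte, erythroid, mitosis and tubulin folding genes in each library, with a line for the group mean. VF libraries are highest for the megakaryocyte genes and lowest for the other 3 lists, and the mitosis genes lie at 2687 to 2883 CPM in VF, 4034 to 4810 CPM in E12 and 5471 to 7358 CPM in WT.

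Markers of cell state and of other cell types moved with these results. The 24 erythroid genes summed to 1339 to 2102 CPM in VF libraries, 10290 to 40698 CPM in E12 and 26217 to 44217 CPM in WT. E12 5 alone made the top of the E12 range, and E12 1 and 2 had 14517 and 10290 CPM. Over all tested genes, 27.7% were higher and 20.9% lower in VF against WT, and 2.19% were higher and 1.02% lower in E12 against VF. Of the erythroid genes 0 were higher and 21 lower in VF against WT (0 and 21 at an unadjusted edgeR p below 0.05) and 22 higher and 0 lower in E12 against VF. That 22 was 3, 7 and 1 without VF 1, 2 and 3 and 4, 14 and 9 without E12 1, 2 and 5. The 298 higher calls over all genes became 37, 54 and 18 without VF 1, 2 and 3. They became 43, 103 and 72 without E12 1, 2 and 5, so the background fell too. Of 21 mitosis genes 2 were higher and 9 lower in VF against WT, with a median log2 fold change of −0.56 (5 lower without any 1 VF library), and 2 were higher and 0 lower in E12 against VF, with a median of 0.66. The lower calls over all genes in VF against WT went from 2842 to 2062, 2042 and 1961 without VF 1, 2 and 3. The megakaryocyte genes were 0 higher and 7 lower in E12 against VF (0 and 15 at an unadjusted edgeR p below 0.05). At most 1 was lower without any 1 VF or E12 library, 18 without WT 50 and 12 without WT 52. The 139 lower calls over all genes became 3, 4 and 1 without VF 1, 2 and 3 and 2, 11 and 4 without E12 1, 2 and 5. They became 1498 without WT 50 and 529 without WT 52. The mean erythroid, mitosis and folding sums were lowest in VF and highest in WT. So were the means of Tuba1a, Tuba1b, Tuba1c, Tuba4a, Tubb2a and Tubb4b. A sum is weighted to its most abundant genes, and in E12 against WT erythroid and mitosis genes moved both ways. At an unadjusted edgeR p below 0.05, 6 erythroid genes were higher and 4 lower, 6 mitosis genes higher and 5 lower, and 0 folding genes higher and 11 lower. At an adjusted p below 0.05, 23.9% of all tested genes were higher there and 18.1% lower. The part of cell composition or division in the tubulin levels was not tested.

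Stem and progenitor genes summed to 2360 to 2401 CPM in VF libraries, 712 to 1215 CPM in E12 and 133 to 249 CPM in WT. All 12 were called higher in VF than in WT, against 27.7% of all tested genes. Neutrophil and monocyte genes summed to 7764 to 14035 CPM in VF, 2419 to 2533 CPM in E12 and 583 to 8708 CPM in WT, and lymphoid genes to 644 to 849 CPM in VF, 253 to 817 CPM in E12 and 526 to 5836 CPM in WT, with E12 5 and WT 50 at the top of their groups and next values of 275 CPM in E12 2 and 1234 CPM in WT 51. WT 50 also topped the neutrophil and monocyte sums of WT, where WT 51 had 2382 CPM. Mast cell and basophil genes summed to 357 to 456 CPM in VF, 43.3 to 208 CPM in E12 and 28.9 to 122 CPM in WT. Mean Tuba8 was highest in VF and lowest in WT, as were the means of Tubb1 and Tubb6. The mean sums of the megakaryocyte, stem, and mast cell and basophil genes had the same order. The part of these lists in the Tuba8 result was not tested.

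**Figure D5:**
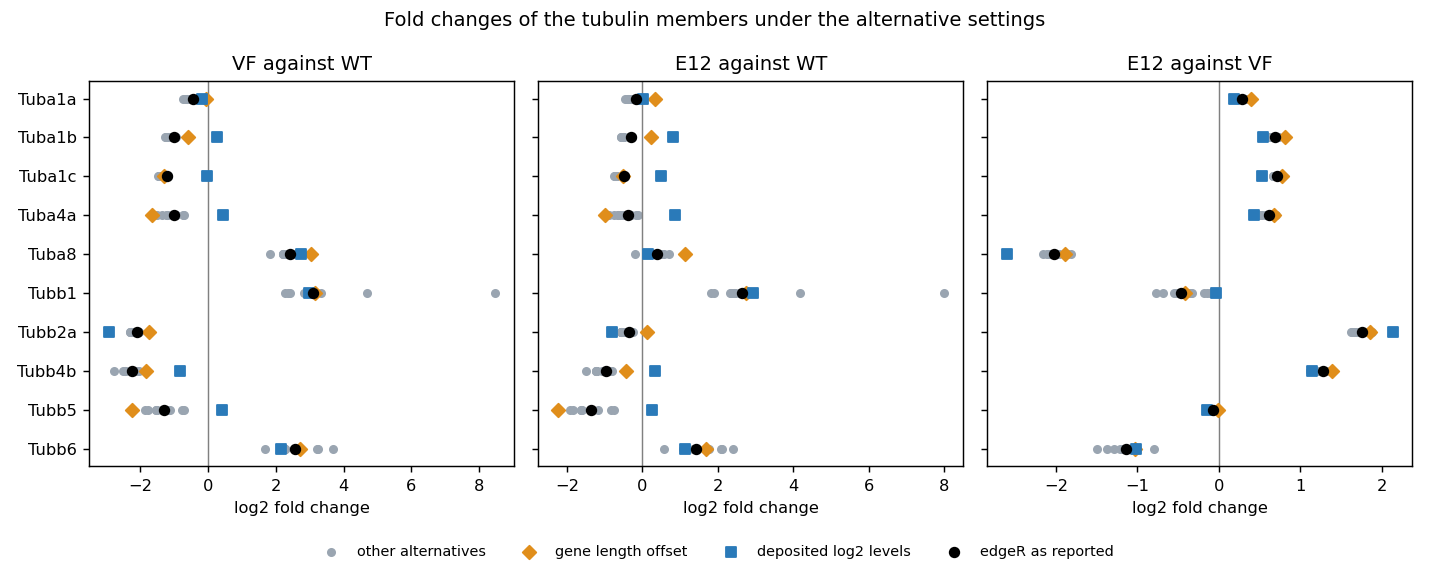
Log2 fold changes of the 10 tubulin genes as reported (black) and under the alternative settings (grey), with the gene length offset (orange) and the deposited log2 levels (blue) set apart. Tuba8, Tubb2a and Tubb4b keep their side of 0 in VF against WT, while the blue squares of Tuba1b, Tuba4a and Tubb5 lie across it.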

How the data were processed

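RNA of 9 libraries of sorted MEP was measured. Per the labels, it was extracted with PicoPure and copied with Smart-Seq2, without strand or molecular identifiers. The authors deposited raw counts for 17769 genes with a gene length, and separately expression levels on a log2 scale, whose normalization no source used here states. STAR and limma, with GRCm38 and mm10, are named by the submitters' processing notes. No counting tool or annotation is named in the sources used here.

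The unchanged deposited counts entered edgeR 4.0.16 (R 4.3.3) with filterByExpr, TMM factors and 1 quasi-likelihood fit of all 9 libraries with group as the only term. P-values are two-sided and Benjamini-Hochberg adjusted over 13608 tested genes, and genes under 0.05 were called. The SE is the log2 fold change over the square root of the F statistic. CPM use the TMM factors, and RPKM divide them by the deposited gene length. The fit was tested on simulated counts. Shares were tested with exact permutation tests. The alternatives were RLE scaling, DESeq2 1.42.0, limma-voom and limma on the deposited levels (limma 3.58.1), other filters, a fit of the 2 groups compared, a smooth offset for gene length, a replicate block, and leaving out libraries. Sequences and positions are from RefSeq (GRCm38.p6) and shared windows from GENCODE M21 transcripts. Figures were drawn with matplotlib 3.10.9.

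The members and lists were chosen with earlier results of these data known. Named by rule were all 10 members, 26 genes of the other lists whatever their values, and the 5 nearest patterns to Tubb1, of which 1 is not reported here. Klf1, Itga2b, Pf4, Stk16 and Fam166a fall outside that rule and were chosen after values were seen. Total counts per library ran from 19256431 to 39736096, and intervals and floors cover counting error only.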

Additional observations from a re-analysis of the deposited data

How the results depend on the processing

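In VF against WT, 7 members were called, and the count was 3 on the deposited log2 levels, the setting under which Tuba1b (0.27), Tuba4a (0.43) and Tubb5 (0.40) turned sign; it ran from 5 to 9 with a library left out. In E12 against WT the count of 2 became 6 with DESeq2, 0 in the fit of 2 groups, 4 without WT 50 and E12 5 together, and 0 to 4 with a library left out. The background moved too. In VF against WT the 3770 genes higher and 2842 lower became 2792 and 1961 without VF 3 and 4593 and 3789 without WT 50. In E12 against WT the 3251 genes higher and 2466 lower became 3601 and 3341 with DESeq2 and 1628 and 1339 in the fit of 2 groups. They became 2289 and 1323 without E12 2 and 3977 and 3362 without WT 50. Signs turned there on the deposited levels for Tuba1a (0.0093), Tuba1b (0.81), Tuba1c (0.50), Tuba4a (0.86), Tubb4b (0.32) and Tubb5 (0.26), with the length offset for Tuba1a (0.32), Tuba1b (0.22) and Tubb2a (0.11), and without WT 52 for Tuba8 (range with a library left out −0.19 to 0.56). In E12 against VF the count of 2 became 5 with DESeq2, 8 in the fit of 2 groups, 5 with the length offset, 5 without WT 50 and E12 5 together, and 0 to 6 with a library left out, and Tubb5 turned sign without VF 2 (range with a library left out −0.16 to 0.0076). Over all genes the 298 higher and 139 lower became 860 and 835 with DESeq2, 3388 and 3024 in the fit of 2 groups, 1055 and 372 with the length offset, and 1568 and 985 without WT 50 and E12 5 together. They became 18 and 1 without VF 3 and 1792 and 1498 without WT 50. Shares of plain counts moved the differences of Tuba8 and Tubb6 in VF against WT and of 6 members in E12 against VF, with no change of sign. The causes were not tested. With the length offset the middle log2 fold change over all genes of VF against WT was −0.24.

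Same-numbered libraries of E12 and VF share only a number. Their deviations from the group means correlated at 0.0097 for number 1 and 0.10 for number 2. Differently numbered pairs ran from −0.20 (VF 2 with E12 5) to 0.23 (VF 3 with E12 5), with 0.13 for VF 2 with E12 1. With the number as a replicate block, 7 members were called in the 4 libraries concerned. In the same libraries without the block, a fit added after seeing the data, 6 were called. Of all 13435 genes tested there, 2785 were higher and 2648 lower with the block and 2728 and 2603 without it. The fit of all 9 libraries had 298 and 139, so the background was far larger in both. The comparisons with WT share no numbers and had no block.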
